A study of Mus musculus with 8 samples.

Results

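The adhesion molecules described here are the integrin chains Itga4, Itgae, Itgal, Itgb1, Itgb7 and Itgb2, the selectin ligand Selplg and the hyaluronan receptor Cd44. They were chosen by gene name, with earlier results of these data known. Every probe set of the array table that carries the single Entrez identifier of any of these 8 genes was taken. This gave 22 of the 45101 probe sets, of which 45037 are not controls. The cells were mouse CD4+CD25+ T cells that carried the red reporter RFP, and the sort divided them by the green reporter. GFP-RFP+ cells are regulatory T cells of peripheral induction according to the labels, and GFP+RFP+ cells are those of thymic induction. Each population was taken from lymph nodes and from spleen of untreated mice 14 to 17 weeks old, with the organs of 20 mice pooled before sorting. The strain, the sex and the genes that drive the reporters are given in no source used here. Each of the 4 groups has 2 Affymetrix arrays, which the labels name as technical replicates, so that a p-value on single arrays measures technical spread and not the spread between mice or sorts.

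Integrins are heterodimers of an alpha and a beta chain that bind ligands on other cells and in matrix. Itgal pairs with Itgb2 to form LFA-1, which binds ICAMs. Itga4 pairs with Itgb1 to form VLA-4, a receptor for VCAM-1 and fibronectin, or with Itgb7 to form the gut homing receptor for MAdCAM-1. Itgae is CD103, which pairs with Itgb7 and binds E-cadherin. Selplg encodes PSGL-1, the scaffold whose sugars are bound by selectins, and Cd44 is commonly used as a marker of antigen-experienced T cells.

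The 2 arrays of a group agreed closely, with a Pearson r of 0.990 to 0.995 across the 17476 probe sets that were called present (P) in all 8 call columns. Of the 7 T cell and regulatory T cell markers, 6 were P in all call columns. The log2 signal of Foxp3 was 9.95 and 10.08 on the arrays of lymph node GFP-RFP+ cells and 10.44 and 10.58 on those of lymph node GFP+RFP+ cells. In spleen it was 9.97 and 9.82 in GFP-RFP+ cells and 10.63 and 10.48 in GFP+RFP+ cells. The spleen arrays also carried signal of other lineages. The summed signal of 5 myeloid markers, on the linear scale, was 141 to 158 and 137 to 149 in lymph node GFP-RFP+ and GFP+RFP+ cells, and 1199 to 1705 and 906 to 1240 in the same cells of spleen. Of these 5 markers 3 were P in all call columns, and none was undetected in all of them. The 5 B cell markers summed to 232 to 264 over the lymph node arrays of both populations and to 475 to 829 over the spleen arrays, with 3 P in all call columns and 1, Pax5, in none. The 4 erythroid markers summed to 87.3 to 107 in lymph nodes, and in spleen to 486 to 557 in GFP-RFP+ and 252 to 382 in GFP+RFP+ cells, which did not overlap, and none of them was P in all call columns. The summed signals of the CD8 T cell, dendritic, platelet and stromal marker lists lay between 95.02 and 191 on all arrays. The summed signal of the 4 NK markers was 62.7 to 80.8 in GFP-RFP+ and 90.3 to 109.8 in GFP+RFP+ cells over both organs. None of these markers was P in all call columns, and they went both ways. On the log2 scale Eomes was higher in GFP+RFP+ cells by 0.67 in lymph nodes and 0.85 in spleen, whereas Klrk1 differed by -0.42 and -0.21. Ncr1 gave 0.92 in lymph nodes and -0.17 in spleen, and Klrb1c, P in no call column, gave -0.33 and 2.05. The summed signal of the 7 T cell and regulatory T cell markers was 15870 to 17030 in GFP-RFP+ and 12300 to 13240 in GFP+RFP+ cells, with members that went both ways. Ctla4, an inhibitory receptor of regulatory T cells, was lower in GFP+RFP+ cells by limma's test on arrays described below, with log2 differences of -1.40 ± 0.10 in lymph nodes (adjusted p = 0.0156) and -1.50 ± 0.10 in spleen (adjusted p = 0.00917). Il2ra, which encodes the sorted marker CD25, was higher in spleen (1.18 ± 0.12, adjusted p = 0.0159), and its difference in lymph nodes was 0.54 ± 0.12 (adjusted p = 0.103). The part of the erythroid, NK and T cell markers in the population differences was not tested.

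All 8 genes were detected in these regulatory T cells. The brightest probe set of each gene was P in all 8 call columns, as were 15 of the 22 probe sets, compared with 38.8% of all probe sets that are not controls. The call columns, and the same signals in the table they belong to, carry no sample names and were read as 8 unlabelled arrays. Over these arrays the 2 chains of LFA-1 were the brightest. The Itgb2 probe set 1450678_at had a median log2 signal of 11.72, with a range of 11.60 to 11.88, and the Itgal probe set 1435560_at had 11.20, with a range of 11.07 to 11.43. The Itgb2 range lay wholly above that of Itgal. Next in order came Itgb7 at 10.92, Itga4 at 10.79, Cd44 at 10.77, Itgae at 10.54 and Selplg at 10.50, and the ranges of neighbours in this order overlapped. Itgb1 was last at 8.81, with a range of 8.23 to 9.67 that lay below every Selplg value. These are signals of different probes, whose brightness depends on probe sequence as well as on transcript amount, so the order is one of signals and not of transcript numbers.

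Probe sets of one gene differed widely in level. The Itga4 probe set 1436037_at had a median log2 signal of 10.79, whereas 1456498_at had 6.60 and 1421194_at 6.18. The other Itga4 probe sets, 1450155_at and 1427615_at, were P on 7 and 6 arrays. Of the 6 Itgb1 probe sets, 1426918_at and 1452545_a_at were P on all arrays with medians of 8.81 and 8.61, and the other 4 were P on 2 to 4 arrays with medians of 1.76 to 3.48. The Cd44 probe set 1443265_at was called absent (A) on all 8 arrays at a median of 1.43, while the other 3 Cd44 probe sets had medians of 10.77, 10.32 and 7.30. No fold change is given for the 7 probe sets that were not P on every array.

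**Figure D1:**
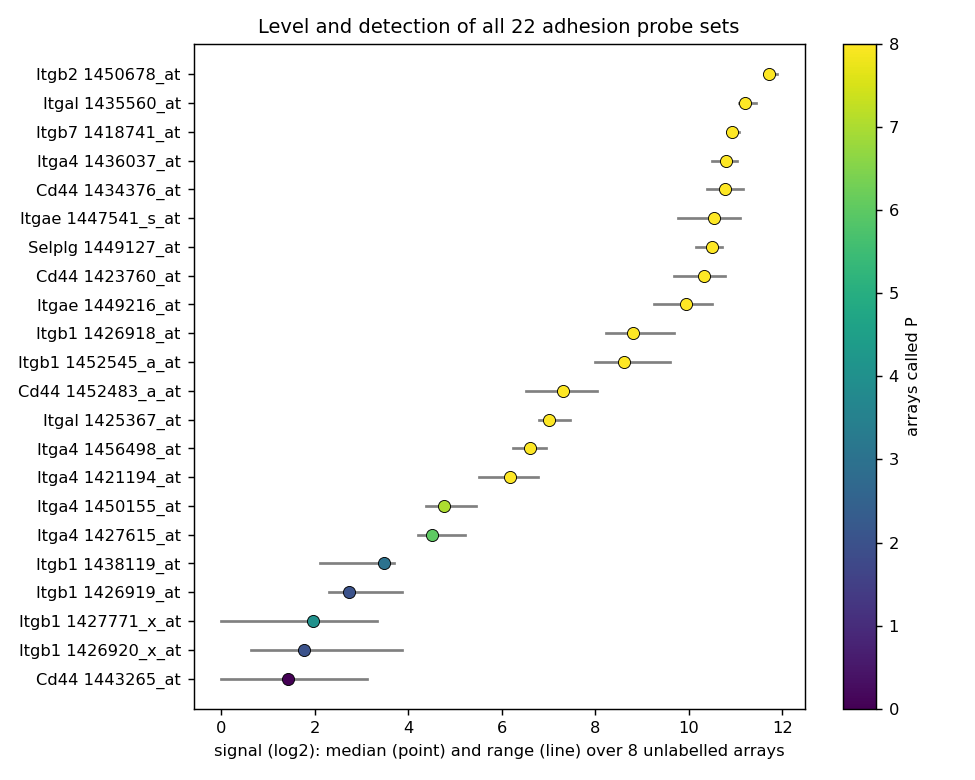
Level and detection of the 22 adhesion probe sets. Each point is the median log2 signal over 8 unlabelled arrays, each line its range, and colour gives the number of arrays called P. The 15 probe sets that were P on all arrays lie above the other 7, which have medians of 4.76 or less.

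The comparison of the populations asks how the adhesion genes of cells labelled as peripherally induced differ from those of cells labelled as thymically induced. By brightest probe set, the beta 1 integrin chain was called lower in GFP+RFP+ cells in both organs, and Cd44 and Itgae were called lower in spleen. In lymph nodes the brightest Cd44 probe set missed the threshold in limma's test on arrays (adjusted p = 0.0700), while the Cd44 probe sets 1423760_at and 1452483_a_at passed. Within lymph nodes, 4 of the 15 detected member probe sets passed the test and all 4 were lower in GFP+RFP+ cells, while 1.59% of all probe sets and 3.06% of those P on all arrays were called lower. Within spleen 6 of 15 passed, again all lower, while 2.64% of all probe sets and 5.21% of those P on all arrays were called lower. The passing probe sets were those of Itgb1 and Cd44 in lymph nodes, and those of Itgb1, Cd44 and Itgae in spleen. Probe sets of the same gene were thus counted more than once. By brightest probe set, 1 of the 8 members was called in lymph nodes and 3 in spleen. The members were chosen with earlier results of these data known, so these shares are a description and no independent test. None of the 7 less detected member probe sets was called in either organ. With quantile normalization 2 of the 15 passed in lymph nodes and 5 in spleen. With the test restricted to the 17476 probe sets P on all arrays 9 passed in each organ. In either direction that test called 3700 of the 17476 in lymph nodes and 5004 in spleen. The 9 in spleen included Selplg, which was higher in GFP+RFP+ cells (limma, adjusted p = 0.0409). In spleen the summed erythroid markers given above were lower, and in both organs the summed NK markers higher, in GFP+RFP+ cells. Each of these lists had members that went the other way. The median difference of the 8 brightest member probe sets was -0.25 in lymph nodes and -0.17 in spleen on the log2 scale, beside -0.06 and -0.02 for all detected probe sets. Across all probe sets most calls were also in this direction, with 716 lower and 140 higher in lymph nodes and 1190 lower and 366 higher in spleen. After quantile normalization the split was 517 lower and 162 higher in lymph nodes and 1032 lower and 592 higher in spleen. These tests were made in limma with Benjamini-Hochberg adjustment over 45037 probe sets and rest on technical replicate arrays. They need all 8 arrays: without any 1 of them no brightest member probe set was called in either organ. The adjusted p then lay at 0.0666 to 0.205 for Itgb1 in lymph nodes, and in spleen at 0.0509 to 0.109 for Itgb1, 0.0662 to 0.179 for Cd44 and 0.0999 to 0.193 for Itgae, with differences that kept their sign.

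When the technical replicates were averaged to 1 value per group and the organs served as the repeat, no probe set of the array was called for the population (limma, smallest adjusted p = 0.282, 7282 with an unadjusted p under 0.05). That fit has 1 residual degree of freedom, so the absence of calls is not evidence of equal levels. The same fit called 4567 probe sets when it was restricted to those that were P on all arrays. With the 8 arrays taken as separate observations, 8.89% of all probe sets were called for the population, among them the brightest of Itgb1, Cd44 and Itgae.

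Itgb1, the beta chain of VLA-4, had the largest difference among the brightest probe sets of the members. Its probe set 1426918_at had log2 signals of 9.02 and 9.24 in GFP-RFP+ cells of lymph nodes, 8.23 and 8.24 in GFP+RFP+ cells of lymph nodes, 9.61 and 9.67 in GFP-RFP+ cells of spleen, and 8.60 and 8.48 in GFP+RFP+ cells of spleen. All 4 arrays of GFP-RFP+ cells lay above all 4 arrays of GFP+RFP+ cells. The difference, GFP+RFP+ minus GFP-RFP+, was -0.89 ± 0.12 (SE) in lymph nodes (adjusted p = 0.0385) and -1.11 ± 0.12 in spleen (adjusted p = 0.0187), on 2 arrays per group. The corresponding folds were 1.86 and 2.15. Averaged over the organs in limma's fit on group means, the 95% interval of the difference was -1.46 to -0.53, with an unadjusted p of 0.00864 and an adjusted p of 0.282. The second detected probe set, 1452545_a_at, followed the first across the 8 arrays (Pearson r = 0.997) and differed by -0.91 ± 0.12 in lymph nodes (adjusted p = 0.0368) and -1.22 ± 0.12 in spleen (adjusted p = 0.0152). With quantile normalization the adjusted p of Itgb1 1426918_at in lymph nodes was 0.0530.

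Cd44, the hyaluronan receptor, showed the same direction in each of its 3 detected probe sets. The brightest, 1434376_at, had log2 signals of 11.06 and 11.11 in lymph node GFP-RFP+ cells, 10.49 and 10.53 in lymph node GFP+RFP+ cells, 11.003 and 11.17 in spleen GFP-RFP+ cells, and 10.41 and 10.39 in spleen GFP+RFP+ cells. The populations did not overlap, and within each population the organs lay close to each other. The difference was -0.68 ± 0.10 in spleen (adjusted p = 0.0369) and -0.57 ± 0.10 in lymph nodes, where it missed the threshold (adjusted p = 0.0700). Probe set 1423760_at differed by -0.80 ± 0.09 in lymph nodes (adjusted p = 0.0283) and -0.96 ± 0.09 in spleen (adjusted p = 0.0140). Probe set 1452483_a_at differed by -0.92 ± 0.11 in lymph nodes (adjusted p = 0.0339, and 0.0553 with quantile normalization) and by -1.40 ± 0.11 in spleen (adjusted p = 0.0115). The probe sets thus gave folds of 1.49 to 1.89 in lymph nodes and 1.61 to 2.63 in spleen, and correlated with each other at Pearson r of 0.980 to 0.985 across the 8 arrays.

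Itgae, the alpha chain CD103, was graded over all 4 groups. Its probe set 1447541_s_at had log2 signals of 10.98 and 11.09 in lymph node GFP-RFP+ cells, 10.61 and 10.69 in lymph node GFP+RFP+ cells, 10.47 and 10.39 in spleen GFP-RFP+ cells, and 9.85 and 9.77 in spleen GFP+RFP+ cells. No group overlapped another. GFP+RFP+ cells of spleen were lower than GFP-RFP+ cells by -0.62 ± 0.10 on the log2 scale (adjusted p = 0.0468), and the difference in lymph nodes was -0.38 ± 0.10 (adjusted p = 0.160). The second probe set, 1449216_at, correlated with the first at r = 0.996 and gave -0.52 ± 0.10 in spleen (adjusted p = 0.0646) and -0.43 ± 0.10 in lymph nodes (adjusted p = 0.120). With quantile normalization the adjusted p of 1447541_s_at in spleen was 0.0557.

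**Figure D2:**
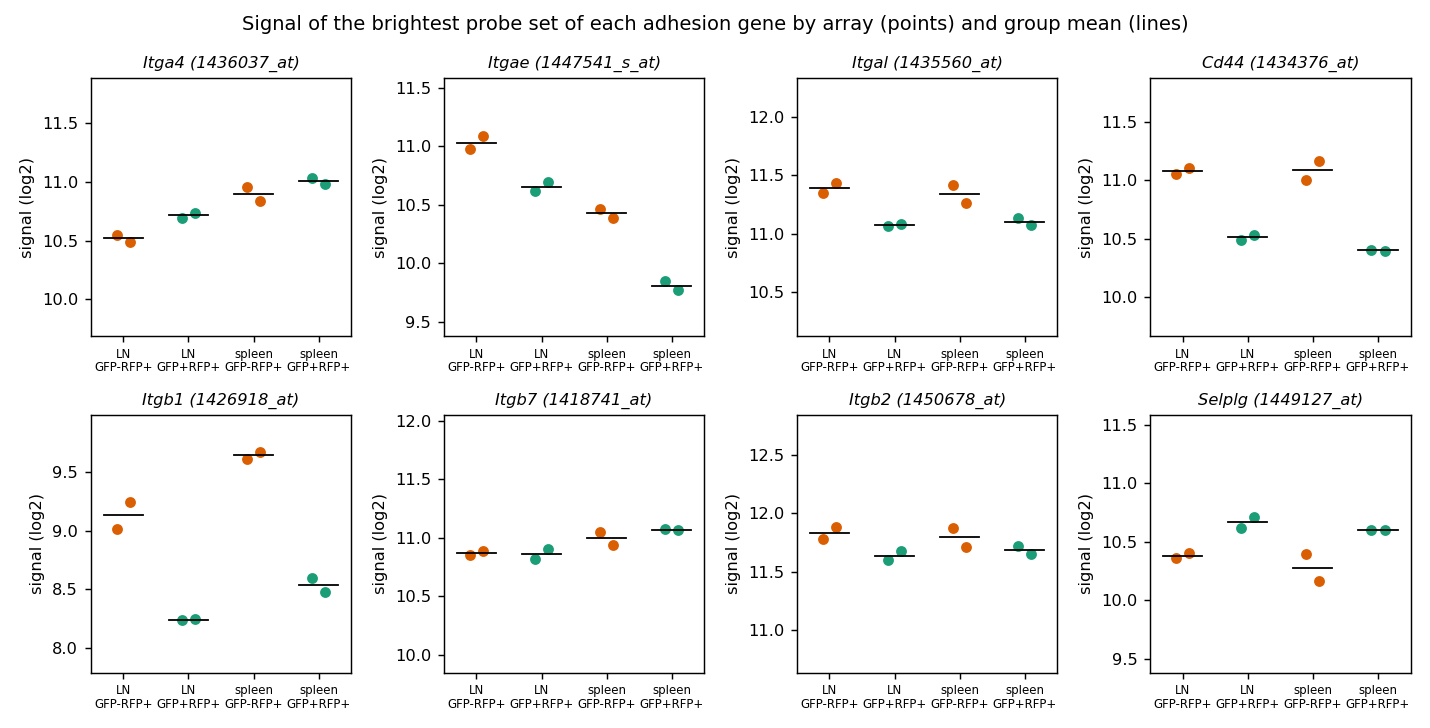
Log2 signal of the brightest probe set of each gene on each array, with 2 arrays (points) and their mean (line) per group, on vertical axes of equal length. Itgb1 and Cd44 separate the populations in both organs, with Itgb1 between 8.23 and 8.60 in GFP+RFP+ cells and between 9.02 and 9.67 in GFP-RFP+ cells, and Itgae is graded from 11.09 down to 9.77.

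For the LFA-1 chains no population difference passed the test on arrays over all probe sets. Itgal 1435560_at had log2 signals of 11.35 and 11.43 in lymph node GFP-RFP+ cells, 11.07 and 11.08 in lymph node GFP+RFP+ cells, 11.42 and 11.26 in spleen GFP-RFP+ cells, and 11.14 and 11.07 in spleen GFP+RFP+ cells. The populations did not overlap, but the differences of -0.32 ± 0.10 in lymph nodes (adjusted p = 0.223) and -0.23 ± 0.10 in spleen (adjusted p = 0.309) did not pass. The dimmer Itgal probe set, 1425367_at, gave -0.34 ± 0.10 (adjusted p = 0.180) and -0.57 ± 0.10 (adjusted p = 0.0528). Limma's test was also restricted to probe sets P on all arrays, a filter chosen after seeing the data. The adjusted p of 1435560_at was then 0.0338 in lymph nodes and 0.0701 in spleen, and that of 1425367_at 0.0214 and 0.00254. Itgb2, the partner of Itgal, lay within 11.60 to 11.88 on all arrays, with differences of -0.19 ± 0.11 in lymph nodes (adjusted p = 0.456) and -0.10 ± 0.11 in spleen (adjusted p = 0.680). The sign of the Itgb2 difference in spleen turned with quantile normalization, to 0.10.

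For Itga4 and Itgb7 no population difference passed the test. Itga4 1436037_at had log2 signals of 10.55 and 10.49 in lymph node GFP-RFP+ cells, 10.70 and 10.73 in lymph node GFP+RFP+ cells, 10.95 and 10.84 in spleen GFP-RFP+ cells, and 11.03 and 10.98 in spleen GFP+RFP+ cells. Its difference was 0.20 ± 0.10 in lymph nodes (adjusted p = 0.403) and 0.11 ± 0.10 in spleen (adjusted p = 0.621). The dimmer 1421194_at gave 0.43 ± 0.21 in lymph nodes (adjusted p = 0.392) and 0.34 ± 0.21 in spleen (adjusted p = 0.470). The values of these Itga4 probe sets lay on the opposite side of 0 from those of the partner chain Itgb1. The third detected Itga4 probe set, 1456498_at, gave 0.33 ± 0.14 in lymph nodes (adjusted p = 0.336) and -0.32 ± 0.14 in spleen (adjusted p = 0.302). In spleen it thus lay on the same side as Itgb1. Itgb7 1418741_at ranged from 10.82 to 11.08 over the 8 arrays. Its population difference averaged over the organs was 0.03, with a 95% interval of -0.37 to 0.44 on the log2 scale in the fit on group means. Within organs the Itgb7 interval was -0.25 to 0.24 in lymph nodes and -0.17 to 0.32 in spleen, on technical spread alone.

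Selplg was the only member whose 4 arrays of GFP+RFP+ cells all lay above the 4 arrays of GFP-RFP+ cells. Its log2 signals were 10.36 and 10.40 in lymph node GFP-RFP+ cells, 10.61 and 10.71 in lymph node GFP+RFP+ cells, 10.40 and 10.16 in spleen GFP-RFP+ cells, and 10.60 and 10.60 in spleen GFP+RFP+ cells. The difference was 0.28 ± 0.12 in lymph nodes (adjusted p = 0.318) and 0.32 ± 0.12 in spleen (adjusted p = 0.223), and neither passed. With limma's test restricted to probe sets P on all arrays, a filter chosen after seeing the data, the adjusted p was 0.0761 and 0.0409. Counted over the 15 detected probe sets, 7 were lower and 1 was higher in GFP+RFP+ cells with no overlap between 4 and 4 arrays, while 23.8% and 13.1% of all detected probe sets showed these patterns.

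**Figure D3:**
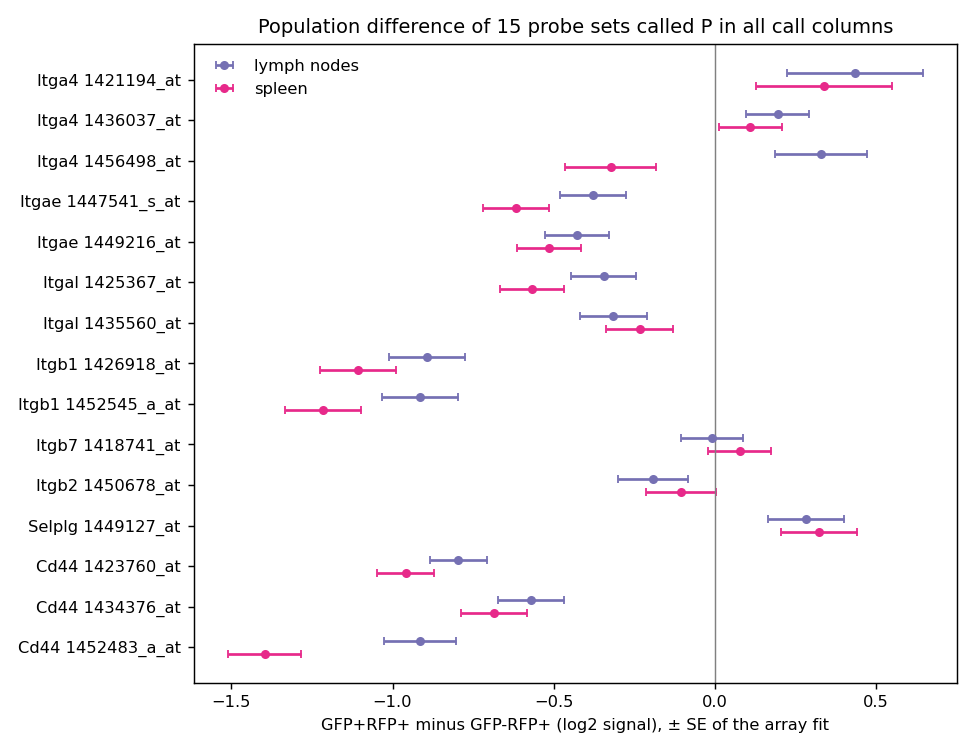
Difference in log2 signal between GFP+RFP+ and GFP-RFP+ cells for the 15 detected probe sets, in lymph nodes and spleen, with the SE of the fit on 8 arrays. Both Itgb1 probe sets and all 3 Cd44 probe sets lie between -0.57 and -1.40, and Itgb7 lies at -0.01 and 0.08.

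Whether the population difference itself differed between the organs was tested on the 8 arrays. Over all probe sets 1 was called, which was not a member, was in no array called P and has no single gene symbol here (0.00222% of those tested, 2533 with an unadjusted p under 0.05). For Itgb1 1426918_at the spleen difference minus the lymph node difference was -0.21 ± 0.17 (adjusted p = 0.961). For Cd44 1452483_a_at it was -0.48 ± 0.16 (adjusted p = 0.840, unadjusted p = 0.0271). No difference between the organs in the population effect was therefore called for any of the 15 detected probe sets.

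Promoter sequences are shown for Itgb1 and Cd44, which had probe sets called lower in GFP+RFP+ cells of both organs. That of Itga4, the partner chain of Itgb1, is shown beside them because it was not called. RefSeq windows of the assembly GRCm38.p6 were on hand for 4 members, Itga4, Itgb1, Itgb7 and Cd44. The 200 bases before the annotated start are printed 5′ to 3′ on the gene's strand, with each GC box (GGGCGG on either strand), a motif bound by Sp and Klf factors, in capitals. They lie at chr8:128685454-128685653 on the plus strand for Itgb1, at chr2:102901666-102901865 on the minus strand for Cd44 and at chr2:79255226-79255425 on the plus strand for Itga4.
Itgb1: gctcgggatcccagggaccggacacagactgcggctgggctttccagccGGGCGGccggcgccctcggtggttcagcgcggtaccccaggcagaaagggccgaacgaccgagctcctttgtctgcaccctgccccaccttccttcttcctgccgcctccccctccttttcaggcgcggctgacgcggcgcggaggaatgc
Cd44: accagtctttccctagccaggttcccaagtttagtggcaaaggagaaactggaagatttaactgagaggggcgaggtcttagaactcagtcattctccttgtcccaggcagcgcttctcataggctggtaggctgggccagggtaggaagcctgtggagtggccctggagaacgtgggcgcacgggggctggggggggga
Itga4: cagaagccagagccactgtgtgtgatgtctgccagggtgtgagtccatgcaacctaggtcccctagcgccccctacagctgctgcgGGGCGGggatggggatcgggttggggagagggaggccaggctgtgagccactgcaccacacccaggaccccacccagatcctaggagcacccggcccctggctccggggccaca
The Itgb1 and Itga4 windows each hold 1 GC box, beginning 151 and 114 bases before the start, and the Cd44 window holds none. Of all 32851 promoter windows of this length 31.0% hold at least 1. The core RUNX motif TGTGGT, searched on both strands, occurs once in the Itga4 window, on the opposite strand, and in 11.2% of all windows. The ETS core CCGGAA was found in none of the windows printed and in 10.7% of all windows. The AP-1 motif TGANTCA was found in none of them and in 5.48% of all. The TATA box TATAAA was likewise found in none of them and in 9.96% of all. The GC content of the windows is 70.0% for Itgb1, 58.5% for Cd44 and 67.5% for Itga4, beside a median of 53.0% over all windows.

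The comparison of the organs asks how the adhesion genes of the same sorted populations differ between spleen and lymph nodes. Itgae was lower in spleen in both populations, and Itga4 and Itgb1 had higher values there. In the fit on group means no probe set of the array was called for the organ (limma, smallest adjusted p = 0.475, 3620 with an unadjusted p under 0.05). When the 8 arrays were taken as separate observations, 0.651% of all probe sets were called, and among the brightest member probe sets Itgae was called. The summed myeloid, B cell and erythroid marker signals given above were also higher on the spleen arrays, and their part in the organ differences of Itga4, Itgb1 and the other members was not tested. In bulk samples such as these, fewer cells of a type and less RNA per cell cannot be told apart.

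For Itgae, both probe sets lay below all lymph node arrays on all 4 spleen arrays. The spleen minus lymph node difference of 1447541_s_at was -0.72 ± 0.13 in the fit on group means (unadjusted p = 0.0199, adjusted p = 0.586), and -0.72 ± 0.07 with an adjusted p of 0.0286 on 8 separate arrays. It was -0.60 in GFP-RFP+ cells and -0.84 in GFP+RFP+ cells. Probe set 1449216_at gave -0.69 ± 0.11 (adjusted p = 0.580), with -0.64 and -0.73 in the same populations.

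For Itga4, the spleen arrays of 1436037_at lay above all lymph node arrays, with a difference of 0.33 ± 0.11 (adjusted p = 0.647). It was 0.38 in GFP-RFP+ and 0.29 in GFP+RFP+ cells. The dimmer 1421194_at, which followed it at r = 0.940, gave 0.70 ± 0.11 (adjusted p = 0.580). The third detected Itga4 probe set, 1456498_at, did not follow them (r = 0.453 with 1436037_at), and gave 0.48 in GFP-RFP+ and -0.17 in GFP+RFP+ cells. Itgb7, which pairs with both Itga4 and Itgae, had spleen arrays at 10.94 to 11.08 above lymph node arrays at 10.82 to 10.90, and its difference of 0.17 ± 0.11 did not pass (adjusted p = 0.796).

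For Itgb1, the spleen was higher within each population, by 0.51 in GFP-RFP+ and 0.30 in GFP+RFP+ cells at 1426918_at, with a difference of 0.41 ± 0.13 (adjusted p = 0.637). Because the population difference was larger than this, the spleen arrays of GFP+RFP+ cells at 8.48 to 8.60 lay below the lymph node arrays of GFP-RFP+ cells at 9.02 to 9.24. For Cd44, Itgal, Itgb2 and Selplg the organ difference of the brightest probe set was -0.05 ± 0.11, -0.01 ± 0.11, 0.01 ± 0.11 and -0.08 ± 0.11, and none passed. The 95% intervals of these organ differences spanned -0.47 to 0.36 for Cd44, -0.42 to 0.39 for Itgal, -0.40 to 0.41 for Itgb2 and -0.48 to 0.31 for Selplg. Over the 15 detected probe sets 2 were lower and 2 were higher in spleen with no overlap between the organs, while 2.85% and 2.89% of all detected probe sets showed these patterns.

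**Figure D4:**
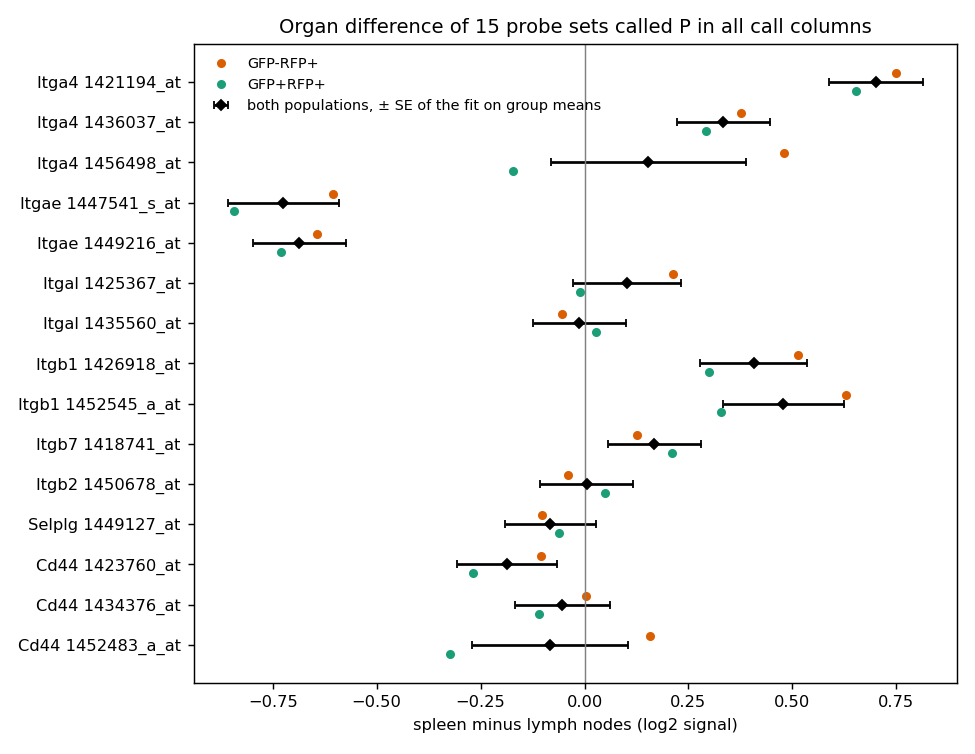
Difference in log2 signal between spleen and lymph nodes for the 15 detected probe sets. Diamonds give both populations together with the SE of the fit on group means, and circles give each population alone. Itgae lies between -0.60 and -0.84, and Itgb1 1426918_at between 0.30 and 0.51.

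Genes around these receptors were read from 4 lists, each gene by its brightest probe set, and called within organs by the same test on arrays. Of 20 other integrin chains 17 had a probe set and 7 were P on all arrays, namely Itga2b, Itga3, Itga6, Itga9, Itgav, Itgb3 and Itgb5. Itga6, a laminin receptor chain, was called in spleen and was higher in GFP+RFP+ cells, with log2 signals of 10.25 and 10.23 in GFP-RFP+ and 10.82 and 10.81 in GFP+RFP+ cells (0.57 ± 0.09, adjusted p = 0.0412), a direction called for 0.813% of all probe sets and 1.32% of those P on all arrays. In lymph nodes the Itga6 difference was 0.47 ± 0.09 (adjusted p = 0.0788). The other 16 chains were not called in spleen and none of the 17 was called in lymph nodes. Itgam and Itgax, integrin chains of myeloid and dendritic cells, were P on 2 and 4 arrays.

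Among 9 ligands and selectins, 2 were P on all arrays, Icam1 and Icam2, the ligands of LFA-1, and neither was called. The Icam2 difference was 0.42 ± 0.13 in lymph nodes (adjusted p = 0.188) and 0.41 ± 0.13 in spleen (adjusted p = 0.164), and that of Icam1 was -0.21 ± 0.10 (adjusted p = 0.381) and -0.32 ± 0.10 (adjusted p = 0.166). Spp1, the secreted ligand osteopontin, was called lower in GFP+RFP+ cells of both organs (adjusted p = 0.0196 in lymph nodes and 0.0152 in spleen), but was P on 3 arrays, and no fold is given. Selp, the selectin that binds PSGL-1, was P on 6 arrays and was not called (adjusted p = 0.0752 in lymph nodes and 0.0561 in spleen). Its log2 signals were 4.13 to 4.72 in GFP-RFP+ and 5.37 to 5.75 in GFP+RFP+ cells, which did not overlap. Madcam1, Cdh1, Fn1 and Sele were P on 1 to 4 arrays and were not called. Vcam1, the ligand of VLA-4, was called lower in lymph nodes (adjusted p = 0.0442) and was P on 7 arrays. Its log2 signal was 3.98 to 6.01 on the lymph node arrays and 8.98 to 9.68 on the spleen arrays, where the summed myeloid markers were also higher and their part in this was not tested.

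Of 13 enzymes that build selectin ligands, 7 were P on all arrays and 2 were called in each organ, both lower in GFP+RFP+ cells. That direction was called for 1.59% of all probe sets in lymph nodes and 2.64% in spleen, and for 3.06% and 5.21% of those P on all arrays. Chst2, a sulfotransferase, was 3.62-fold lower in GFP+RFP+ cells of lymph nodes (adjusted p = 0.0144) and 3.82-fold lower in those of spleen (adjusted p = 0.00917). Its log2 signals were 7.47 and 7.27 against 5.47 and 5.55 in lymph nodes, and 7.38 and 7.43 against 5.47 and 5.48 in spleen. Gcnt1, which builds the branched core of the sugars on PSGL-1, was 2.82-fold lower in lymph nodes (adjusted p = 0.0225) and 1.96-fold lower in spleen (adjusted p = 0.0385). The Gcnt1 signals were 8.61 and 8.62 against 7.18 and 7.05 in lymph nodes, and 7.39 and 7.48 against 6.29 and 6.64 in spleen. Fut7, which adds fucose to these sugars, was P on 1 array. All 16 genes of integrin activation and anchoring, among them talin (Tln1) and kindlin 3 (Fermt3), were P on all arrays and none was called in either organ. Those with the largest population difference were Apbb1ip, at -0.64 ± 0.23 in lymph nodes and -0.39 ± 0.23 in spleen, and Vcl, at -0.35 ± 0.11 and -0.29 ± 0.11.

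**Figure D5:**
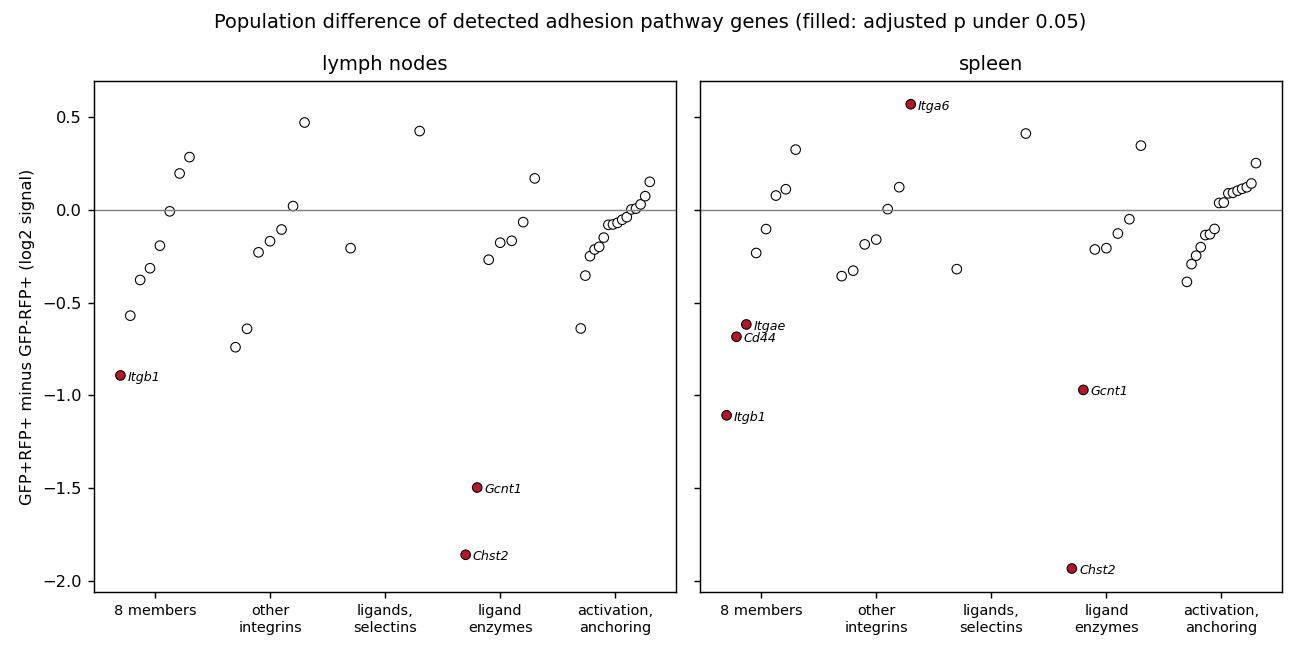
Difference in log2 signal between GFP+RFP+ and GFP-RFP+ cells for the 8 members and for the genes of 4 lists that were P on all arrays, in lymph nodes and in spleen. Filled points passed the test on arrays, and among them Chst2 at -1.86 and -1.93 is the lowest and Itga6 at 0.57 in spleen the highest.

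The 2 members whose brightest probe set ranged over at least 1 log2 unit across the 8 labelled arrays were Itgb1 and Itgae. The probe sets of other genes most like Itgb1 1426918_at were those of Il1rl1, Plscr1 and Nsmf, with Pearson r of 0.996, 0.993 and 0.991 over the 8 arrays. Il1rl1, the IL-33 receptor chain ST2, was P on all arrays and ranged from 8.11 to 9.97. Plscr1 was also P on all arrays, and Nsmf on 2. Those most like Itgae 1447541_s_at were Ubxn11, Magea7-ps and Uhrf1, with r of 0.981, 0.972 and 0.969, and were P on 2, 0 and 6 arrays. These are the highest of 15647 candidates for Itgb1 and 15651 for Itgae, on arrays that share 4 groups, and are given as a description.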

How the data were processed

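The data are 8 one-colour Affymetrix Mouse430_2 arrays. The signal intensity was computed by the authors in dChip, per the file headers, by model-based expression against a baseline array and without log transformation, and added a detection call (P, M or A) to each value. The submitters' processing notes name RMA. A second deposited table names its columns by sample, and each of its 8 columns holds the same intensity as exactly 1 dChip column at every probe set. It gave all comparisons between groups. The dChip columns match no sample label, so their signals and calls were read as unlabelled arrays. The number of arrays limits the precision.

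Intensities were taken to log2 with no pseudocount, and 64 control probe sets were left out. limma 3.58.1 in R 4.3.3 was used for all tests, with Benjamini-Hochberg adjustment over 45037 probe sets and a threshold of 0.05. For population and organ, technical replicates were averaged to 1 value per group and both factors fitted. Differences within organs and between them came from 1 mean per group on 8 arrays. The brightest probe set by mean stands for a gene. The text names the 8 members and, of each list, the genes past the threshold or else the 2 with the largest population difference. Other genes named from the lists, for their detection or as partners, were chosen after their values were seen. One gene of the list of ligands and selectins is not reported here. The members and lists were chosen with earlier results of these data known. Symbols were matched by Entrez identifier to RefSeq (GRCm38.p6). Alternatives covered scaling, filters, the pseudocount, the variance prior, the replicate block and the loss of each array.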

Additional observations from a re-analysis of the deposited data

Results flagged for a closer look

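One member probe set differed in direction between the organs. Itga4 1456498_at had log2 signals of 6.23 and 6.44 in GFP-RFP+ and 6.63 and 6.70 in GFP+RFP+ cells of lymph nodes, against 6.95 and 6.69 in GFP-RFP+ and 6.43 and 6.56 in GFP+RFP+ cells of spleen. Both arrays moved up in lymph nodes and down in spleen. The spleen difference minus the lymph node difference was -0.65 ± 0.20 (limma on 8 arrays, unadjusted p = 0.0210, adjusted p = 0.809), so it did not pass. The brighter Itga4 probe set 1436037_at gave -0.08 ± 0.14 for the same quantity.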

How the results depend on the processing

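The population differences of Itgb1, Cd44 and Itgae kept their sign in every setting run, while calls depended on the setting. In the main fit on group means 0 probe sets were called for the population and 0 for the organ. Population calls numbered 4006 of 45037 with 8 arrays as separate observations. Other fits on group means called 4478 over the probe sets above the median level, 3700 of 45037 with a pseudocount of 16 and 6638 of 45037 with a variance prior following the level. Over the 17476 probe sets P on all arrays (a filter chosen after seeing the data) the fit on group means called 4567. Among the 8 brightest member probe sets these settings called 3, 3, 3, 5 and 4. These member counts thus stand beside different shares of all probe sets tested. The organ counts in the same order were 293, 151, 279, 731 and 59, with 1, 0, 1, 3 and 0 members. Quantile normalization, median centring and the loss of any 1 array left all these counts at 0. Within lymph nodes 856 probe sets were called, against 3591 above the median level, 3700 over those P on all arrays and 1 to 431 without 1 array. Within spleen 1556 were called, against 5154, 5004 and 0 to 416. The test of a difference between the organs called 1, against 0 over probe sets P on all arrays and 0 to 1 without 1 array. With quantile normalization the Itgb2 difference was 0.039 for the population, -0.036 for the organ and 0.099 within spleen, and that of Itgb7 within lymph nodes was 0.080. Median centring gave Itgb2 an organ difference of -0.048, and means over all probe sets of a gene gave 0.045 for Itgal and 0.16 for Cd44. Without 1 array the organ difference ranged from -0.051 to 0.027 for Itgal and from -0.034 to 0.044 for Itgb2, and the lymph node population difference of Itgb7 from -0.052 to 0.034. The cause of these shifts was not tested.

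Residuals of same-numbered arrays correlated at -0.103 to 0.133 over 6 pairs of groups. That correlation takes no account of a shift shared by all probe sets. The median log2 signal was higher on replicate 2 than on replicate 1 in every group. It was 4.69 against 4.651 in GFP-RFP+ and 4.68 against 4.642 in GFP+RFP+ cells of lymph nodes. In spleen it was 4.755 against 4.72 and 4.713 against 4.689. Whether the replicate numbers pair arrays across groups was therefore not settled. With the replicate number as a block on 8 arrays, calls numbered 2382 for the population with 2 members, 69 for the organ with 0 members, 1 within lymph nodes and 411 within spleen. The block ended every call of a brightest member probe set within an organ, at an adjusted p of 0.0933 for Itgb1 in lymph nodes and, in spleen, 0.0562 for Itgb1, 0.0800 for Cd44 and 0.103 for Itgae.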
